A study of Arabidopsis thaliana with 6 samples.

Results

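The HOTHEAD family of *Arabidopsis thaliana* consists of glucose-methanol-choline (GMC) oxidoreductases, flavin-dependent enzymes that oxidise alcohols. A list of 8 loci of this family was taken, and those with a probe set tied to that gene alone were kept, which left 5 of 8 loci, among 13355 genes measured in this way in the series. The 5 were AT5G51950, AT1G12570, AT3G56060, AT1G73050 and AT5G51930. AT1G14185 and AT1G14190, neighbouring loci on chromosome 1, shared 1 probe set and were left out by the rule. *HOTHEAD* itself (AT1G72970, symbol *HTH*) was not analysed here, since the probe table did not list a probe set for it. The family was chosen by measured values of the present comparison, since AT5G51950 was among the genes with the largest differences between the genotypes. The values of its members in that comparison are therefore given as a description, with no p-value for a member, and members past the threshold of the fit over all probe sets are only counted.

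*HOTHEAD* is known for mutants whose floral organs fuse, a sign of a faulty cuticle, the lipid layer that seals the epidermis. Its enzyme is thought to act on omega-hydroxy fatty acids on the way to the dicarboxylic acids that are built into cutin, the polyester of the cuticle. In the stem the epidermis makes both cutin and the waxes that cover it. A related protein in maize, IPE1, is needed for the anther cuticle and the pollen wall. The roles of the 5 measured Arabidopsis genes are not stated in the sources used here beyond their place in the family.

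RNA came from inflorescence stems of plants of ecotype Columbia, aged 5 weeks and grown in 16 h of light and 8 h of dark. The 35S::CLE41 plants, in the Columbia background, carry *CLE41* under a viral promoter, 35S, that is active in most tissues, so that expression of this peptide gene is not limited to the phloem, its normal site. The other group was wild type (WT). The basal part of the stem was used, without the 1 cm next to the rosette, and each genotype had 3 samples on 1 array each. The labels do not say whether the samples came from separate plants, whether plants were pooled or how many transgenic lines were used, so the spread between arrays may be technical. *CLE41* (AT3G24770) had log2 intensities of 11.27, 11.73 and 11.38 in 35S::CLE41 and 9.68, 9.42 and 9.98 in WT.

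Median intensity lay between 97.4 and 101 on the 35S::CLE41 arrays and between 91.9 and 96.3 on the WT arrays. WT replicate 2 stood apart: 365 probe sets differed at least 2-fold from the mean of the other WT arrays, against 32 to 100 for the other 5 arrays set against their own group. Some markers of the labelled tissue, those of xylem and photosynthesis, were bright. The xylan genes *IRX10* and *IRX15* and the Calvin cycle genes *PRK* and *SBPASE* had mean log2 intensities above 9 in both genotypes. *AMS*, a tapetum regulator of the anther, was at 4.14 in 35S::CLE41 and 4.20 in WT, among the dimmest signals.

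The members fell into a pair with large differences and a trio with small ones. AT5G51950 and AT1G12570 were bright in WT and several-fold lower in 35S::CLE41. AT3G56060, AT1G73050 and AT5G51930 were dim on all 6 arrays, and their log2 differences (35S::CLE41 minus WT) lay between -0.32 and 0.11. Over the 5 members the median of that difference was -0.32, against 0.00197 over all 22746 probe sets.

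AT5G51950 (chromosome 5) had intensities of 27.3, 34.1 and 32.7 in 35S::CLE41 replicates 1, 2 and 3, against 246, 630 and 261 in WT replicates 1, 2 and 3. The groups did not overlap, and the lowest WT array was 7.23 times as bright as the highest 35S::CLE41 array. On the log2 scale the gene averaged 4.96 ± 0.17 in 35S::CLE41 and 8.42 ± 0.76 in WT (SD, n = 3 each), a difference of -3.46 (SE 0.33), or 11.0-fold lower in 35S::CLE41. The SE is that of limma's moderated fit over all probe sets. This was the second lowest difference of all 22746 probe sets, a rank that belongs to the choice of the family.

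WT replicate 2 carried part of that size. Its log2 value for AT5G51950 lay 1.31 above the mean of the other WT arrays, while the 35S::CLE41 arrays lay between 4.77 and 5.09. Without WT replicate 2 the difference was -3.02, or 8.13-fold. All 3 35S::CLE41 values lay under 51.0, the upper limit in mean intensity of the dimmest 40% of probe sets, so the size of the difference is uncertain in addition. No measured background was available to set a floor.

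AT1G12570 (chromosome 1) was the other gene with a large difference. Its intensities were 59.4, 77.7 and 80.4 in 35S::CLE41 replicates 1, 2 and 3, against 376, 456 and 306 in WT replicates 1, 2 and 3. The groups did not overlap here either, and the lowest WT array was 3.81 times as bright as the highest 35S::CLE41 array. The log2 means were 6.17 ± 0.24 in 35S::CLE41 and 8.55 ± 0.29 in WT (SD, n = 3 each), which gives a difference of -2.38 (SE 0.18), or 5.21-fold lower in 35S::CLE41. Unlike AT5G51950, it stayed above the intensity of the dimmest 40% on every array. WT replicate 2 was again the brightest array, by 0.43 on the log2 scale over the mean of the other WT arrays, and without it the difference was -2.24, or 4.72-fold.

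AT3G56060 (chromosome 3) was dim. It had intensities of 20.6, 19.4 and 20.8 in 35S::CLE41, against 28.1, 22.9 and 25.1 in WT. The groups did not overlap, but the gap between the highest 35S::CLE41 array and the lowest WT array was 0.14 on the log2 scale. Its log2 difference was -0.32 (SE 0.11), or 1.25-fold lower in 35S::CLE41. WT replicate 2 was the lowest WT array for this gene, the reverse of its place for AT5G51950 and AT1G12570, and without it the difference was -0.39.

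AT1G73050, the 8th protein-coding locus after *HOTHEAD* on chromosome 1, had intensities of 25.9, 24.8 and 23.7 in 35S::CLE41 and 23.7, 24.3 and 21.1 in WT. The groups overlapped, with a log2 difference of 0.11 (SE 0.10). AT5G51930 had 16.5, 18.1 and 17.1 in 35S::CLE41 and 16.8, 16.1 and 17.2 in WT. These were the dimmest values of the 5 genes and lay below the lower quartile of every array, which ran from 21.9 to 23.5. The groups overlapped, with a log2 difference of 0.04 (SE 0.09), and shifting all arrays to 1 median turned its sign (-0.04). Signals this dim may not report the transcript, so these values do not show that AT1G73050 and AT5G51930 were alike in the genotypes.

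**Figure D1:**
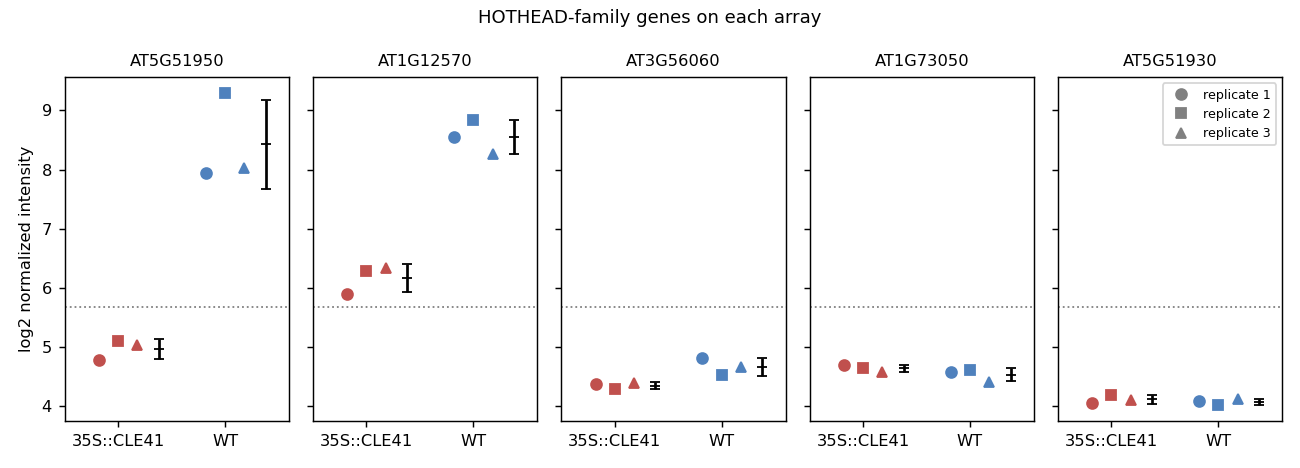
Log2 normalized intensity of the 5 genes (1 panel each) on the 3 35S::CLE41 arrays (red, left) and the 3 WT arrays (blue, right), with the marker shape giving the replicate number, black bars the mean and SD, and the dotted line the log2 value of 5.67 that bounds the dimmest 40% of probe sets. AT5G51950 and AT1G12570 are separated widely between the genotypes, and the other 3 genes lie below the line on every array.

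Counted over the fit to all probe sets, 2 of 5 members passed a limma adjusted p of 0.05, both lower in 35S::CLE41. Over all probe sets 14.8% passed in either direction, 7.93% higher and 6.86% lower in 35S::CLE41. The same 2 members were at least 2-fold lower besides, against 2.08% of all probe sets. For 3 of 5 members, all lower in 35S::CLE41, the ranges of the genotypes were separate, against 34.5% of probe sets in either direction, 18.7% higher and 15.8% lower. Nothing is read from these counts, since the comparison itself led to the family.

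**Figure D2:**
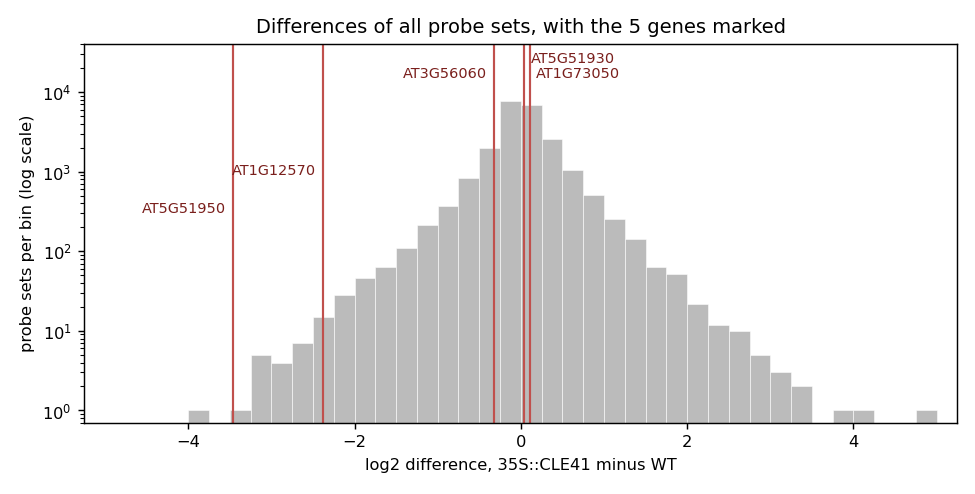
Number of probe sets (log axis) by log2 difference, 35S::CLE41 minus WT, in bins over all 22746 probe sets, with red lines at the 5 genes. AT5G51950 (-3.46) and AT1G12570 (-2.38) lie in the far left tail, and the other 3 lie in the central bins.

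The genes directly beside the 8 listed loci were read next, and 8 of them had a named probe set. AT5G51930 and AT5G51950 are separated by 1 protein-coding gene, *NRPB6A* (AT5G51940), which encodes a subunit shared by nuclear RNA polymerases. *NRPB6A* had log2 means of 9.68 in 35S::CLE41 and 9.08 in WT, a difference of 0.60 (SE 0.13). On the other side of AT5G51950, AT5G51960 averaged 8.07 in 35S::CLE41 and 8.49 in WT, a difference of -0.42 (SE 0.14). Next to AT1G12570, the expansin gene *EXPA7* (AT1G12560) was dim in both genotypes, at 4.72 in 35S::CLE41 and 4.74 in WT. These 3 neighbours differed less in size between the genotypes than AT5G51950 (-3.46) and AT1G12570 (-2.38). Since a large difference led to the choice of the family, nothing is read from this contrast. On either side of AT1G14185 and AT1G14190, AT1G14180 differed by 0.31 (SE 0.15) and AT1G14200 by 0.73 (SE 0.20). The gene before AT1G73050, AT1G73040, differed by 0.64 (SE 0.24), the one before AT3G56060, AT3G56050, by 0.20 (SE 0.11), and the one before *HOTHEAD*, AT1G72960, by -0.06 (SE 0.11).

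The likeness of members to each other was measured over the 6 arrays as the root mean square distance between log2 profiles, each centred on its own mean. AT5G51950 and AT1G12570 were 0.63 apart. The dim trio lay between 0.12 and 0.25 apart among themselves, and between 1.06 and 1.83 from AT5G51950 and AT1G12570. Signals as dim as those of the trio may not report the transcript. The small distances within the trio therefore do not show that its genes behave alike. Among 13354 other genes AT1G12570 was 18th in nearness to AT5G51950. The difference between the genotypes is part of each of these distances.

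The 5 genes nearest to AT5G51950 were AT1G72110 (distance 0.17), AT3G54400 (0.28), AT2G33850 (0.32), AT5G45950 (0.32) and AT5G33370 (0.37). All 5 were lower in 35S::CLE41, which a small distance from AT5G51950 requires, since the genotype difference is part of it. AT1G72110, the closest, averaged 5.20 in 35S::CLE41 and 8.38 in WT, a log2 difference of -3.19 (SE 0.28). AT2G33850 differed by -3.95 (SE 0.32), AT3G54400 by -3.19 (SE 0.21), AT5G33370 by -3.08 (SE 0.39) and AT5G45950 by -2.96 (SE 0.22). In WT replicate 2 each also exceeded the mean of the other WT arrays, by 0.71 for AT3G54400 up to 1.22 for AT2G33850, against 1.31 for AT5G51950. WT replicate 2 therefore entered this ranking besides the genotype.

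The nearest genes of AT1G12570 were ranked in the same way, a choice made after the values of the members were seen. They were AT3G10720 (distance 0.13), AT1G02070 (0.17), AT1G25230 (0.21), AT2G10940 (0.24) and *PRA1.F1* (0.24), the last encoding a prenylated RAB acceptor of membrane traffic. Their log2 differences ran from -2.45 for AT3G10720 to -2.07 for AT1G25230, which the ranking likewise draws towards that of AT1G12570. WT replicate 2 exceeded the mean of the other WT arrays by 0.03 for AT1G25230 up to 0.36 for *PRA1.F1*, less than for any of the 5 genes nearest to AT5G51950. No gene stood in both groups of 5.

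**Figure D3:**
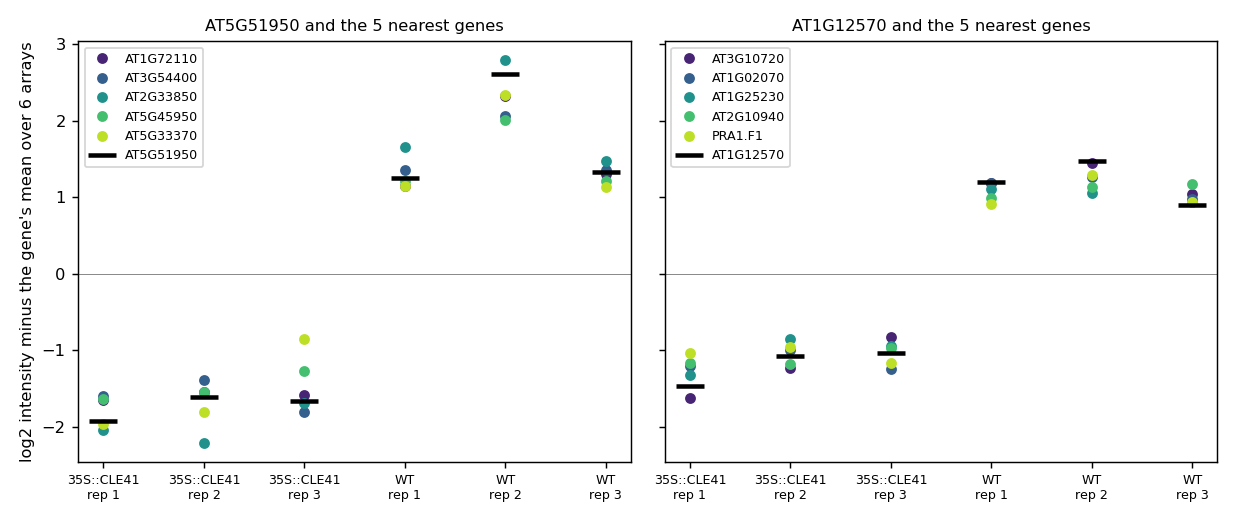
Log2 intensity minus each gene's own mean over the 6 arrays (vertical axis) on the 3 35S::CLE41 and 3 WT arrays, for AT5G51950 (left, black dashes) and AT1G12570 (right, black dashes) with the 5 genes nearest to each (coloured points). WT replicate 2 is the high array for AT5G51950 and its 5 nearest genes, and the WT arrays lie closer together in the right panel.

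Genes of the cuticle pathway were examined from lists written from textbook knowledge, and few had a named probe set. The lists were chosen with earlier results of these data known. The adjusted p-values of list genes are therefore given as a description. Of 16 genes for cutin synthesis and export 1 was measured, and it fell: AT5G33370, the fifth nearest to AT5G51950. It had log2 intensities of 5.40, 5.57 and 6.52 in 35S::CLE41, against 8.52, 9.71 and 8.50 in WT (limma adjusted p = 0.0028). Of 17 wax genes 1 was measured, *WSD1*, encoding the wax ester synthase of stem wax. *WSD1* fell by 3.08 on the log2 scale (SE 0.24; limma adjusted p = 0.00055), and its values were 6.15, 5.70 and 6.15 in 35S::CLE41, against 9.07, 9.57 and 8.60 in WT. For both genes the genotypes were separated by more than the spread within either, as for AT5G51950 and AT1G12570.

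Cuticle transcription factor genes had 2 of 9 measured. *SHN3*, an activator of cutin and wax genes, fell by 0.87 (SE 0.20; limma adjusted p = 0.0274). Leaving out WT replicate 1, WT replicate 2, 35S::CLE41 replicate 2 or 35S::CLE41 replicate 3 ended this call (adjusted p of 0.0542 to 0.099). *DEWAX*, a repressor of wax synthesis, differed by 0.55 (SE 0.16; limma adjusted p = 0.0564) and was called without 35S::CLE41 replicate 1 (adjusted p = 0.0492). None of 9 suberin genes was measured.

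Long-chain fatty alcohol oxidases are the other GMC-type enzymes listed, and 3 of 4 were measured. None was called, against 14.8% of all probe sets, and their median log2 difference was 0.22. With 3 genes nothing is read from this count. AT4G19380 differed by 0.32 (SE 0.13), AT4G28570 by 0.22 (SE 0.10) and AT1G03990 by -0.15 (SE 0.15). AT4G28570 was well expressed, with a mean of 8.54 in 35S::CLE41 and 8.32 in WT. AT1G03990 and AT4G19380 were in the dim range.

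Markers of stem tissues were read beside these values, because in bulk stem RNA fewer cells of a type and less RNA per cell cannot be told apart. Of 10 epidermal markers 2 were measured, *WSD1* and *ACR4*, a receptor kinase gene of the epidermis, and 1 of them fell. *ACR4* was dim and differed by -0.22 (SE 0.09; limma adjusted p = 0.171). The summed intensity of both markers lay between 81.4 and 104 in 35S::CLE41 and between 425 and 796 in WT. The fall in this sum was almost wholly that of *WSD1*, already given above. Its log2 mean was 6.00 in 35S::CLE41 and 9.08 in WT, while *ACR4* was at 4.95 and 5.17. The part of epidermal content in the values of AT5G51950 and AT1G12570 was not tested.

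Few markers of other tissues were measured either. The 3 photosynthetic genes measured of 7 summed to between 13193 and 15355 in 35S::CLE41 and between 16716 and 19336 in WT. Among them *SBPASE* fell by 0.66 (SE 0.11; limma adjusted p = 0.009), while *PRK* differed by -0.34 and *RCA*, encoding Rubisco activase, by -0.18. The xylem genes *IRX10* and *IRX15*, 2 of 9, summed to between 2320 and 3298 in 35S::CLE41 and between 985 and 2396 in WT, with log2 differences of 0.45 (SE 0.30) and 0.90 (SE 0.39). Without WT replicate 2 these were 0.13 and 0.40. The phloem genes *OPS* and *SWEET11*, 2 of 7, differed by 0.41 (SE 0.27) and 0.22 (SE 0.19), and *OPS* was called without WT replicate 2 (0.71, limma adjusted p = 0.0422). Of 10 anther and pollen wall genes *AMS* alone was measured (-0.05, SE 0.11), and of 4 floral organ identity genes none. The part of these tissues in the members' values was not tested.

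**Figure D4:**
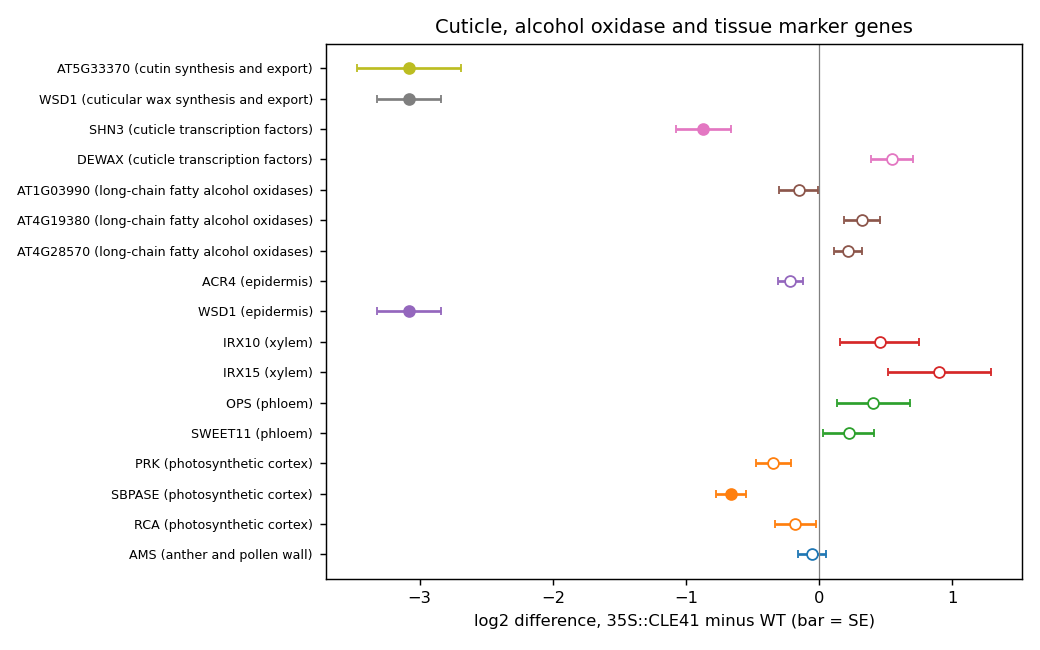
Log2 difference, 35S::CLE41 minus WT (point, with its SE as the bar), of each measured gene of the cuticle, alcohol oxidase and tissue marker lists, with filled points for a limma adjusted p under 0.05. AT5G33370 and *WSD1* (drawn in both of its lists) lie near -3, and the alcohol oxidases lie between -0.15 and 0.32.

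The members' differences were followed through the other processing settings. AT5G51950 ran from -3.70 without WT replicate 1 to -2.93 on the log2(value + 16) scale, which draws dim values together. AT1G12570 ran from -2.53 without WT replicate 3 to -2.15 on that same scale. The ranges of these 2 genes did not meet, and neither came near 0. AT3G56060 stayed between -0.40 and -0.19, and AT1G73050 between 0.03 and 0.15.

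**Figure D5:**
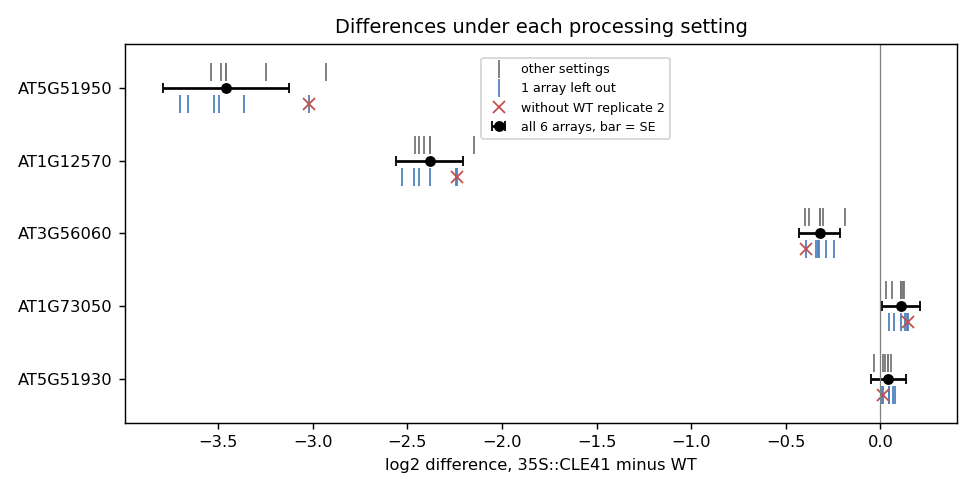
Log2 difference, 35S::CLE41 minus WT, of the 5 genes with all 6 arrays (black point, SE as the bar), with 1 array left out (blue ticks; red cross without WT replicate 2) and under the other settings (grey ticks). AT5G51950 lies between -3.70 and -2.93 and AT1G12570 between -2.53 and -2.15, while AT5G51930 lies around 0.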

How the data were processed

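Per the labels' protocols, Trizol was used to extract RNA, and biotin label was added by a 2-cycle protocol. The authors deposited 1 linear intensity per probe set and array, taken to be already normalized because the array medians were close. The medians were nevertheless higher on every 35S::CLE41 array (97.4 to 101) than on any WT array (91.9 to 96.3). The submitters' processing notes name RMA and limma without versions. No genome build is named in those sources. Log2 of the deposited intensity was taken for all fits. Of 22746 probe sets 13513 were tied to 1 gene by a platform table, 503 to several genes and 8730 were not listed there. Symbols came from RefSeq (TAIR10.1 annotation), which held 13436 of the 13513.

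The genotypes were compared with limma 3.58.1 under R 4.3.3 (two-sided moderated test from lmFit and eBayes), and p-values were adjusted over all 22746 probe sets by Benjamini-Hochberg, with calls at 0.05. The procedure was tested on simulated data with independent normal noise. That simulation held no array set apart as WT replicate 2 is, so it does not cover that feature. Its SDs were shuffled across probe sets, so any link between intensity and spread was not kept either. The number of arrays limits the precision. For lists, a gene with several probe sets was read from its brightest (highest mean over the 6 arrays). The members and lists were chosen with earlier results of these data known. Genes named were the members, *CLE41*, the 5 nearest profiles of AT5G51950, and from each list up to 4 called genes or the 2 with the smallest p. The genes nearest to AT1G12570, the measured genes beside the listed loci and the remaining measured list genes were named in addition. The same ranking for *HOTHEAD* could not be made without its probe set. Alternatives were 2 rescalings, removal of the dimmest 40%, only probe sets of 1 gene, log2(value + 16), eBayes with trend and robust, array weights, the replicate number as a block, other thresholds, and leaving out each array. Figures were drawn with matplotlib 3.10.9.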

Additional observations from a re-analysis of the deposited data

Results flagged for a closer look

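The probe set tied to both AT1G14190 and AT1G14185 was not used in the comparisons above, since its signal cannot be assigned to either locus. It is given here as a probe set left unanalysed, with its difference between the genotypes already known. Its intensities were 157, 127 and 140 in 35S::CLE41, against 52.0, 52.2 and 57.7 in WT. The ranges of the genotypes were separate, and the log2 difference was 1.38 (SE 0.11), or 2.61-fold higher in 35S::CLE41, opposite in direction to AT5G51950 and AT1G12570. Without single arrays it ran from 1.31 to 1.46. Which of the loci gave the signal was not tested.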

How the results depend on the processing

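For AT5G51950, AT1G12570, AT3G56060 and AT1G73050 every setting run kept the sign, and AT5G51930 turned with arrays shifted to 1 median (-0.036). Of 5 members, 2 were called without each single array, against 1699 to 2872 of 22746 probe sets. With arrays shifted to 1 median and with array weights 3 were called, where AT3G56060 was added. Those settings called 3367 and 3961 of 22746 probe sets. The main fit called 3364 of 22746 (14.8%), 1803 higher and 1561 lower in 35S::CLE41. With arrays shifted to 1 median 1392 were higher and 1975 lower. Quantile normalization again gave 1550 higher and 1697 lower. Restricting the fit to probe sets of 1 gene, which leaves fewer to call, gave 1607 (885 higher, 722 lower), a 2-fold limit 949 (476 higher, 473 lower) and an adjusted p of 0.01 gave 1125 (503 higher, 622 lower). Without single arrays the count ran from 1699 (35S::CLE41 replicate 2) to 2872, with 770 to 1490 higher and 917 to 1382 lower. It was 1906 without 35S::CLE41 replicate 1 and 1930 without 35S::CLE41 replicate 3. With the replicate block 2897 were called (1507 higher, 1390 lower) and the same 2 members. Replicate numbers were not taken to pair the samples, since the labels do not say that they do. Between arrays of the same replicate number, deviations from the group mean correlated at -0.01, 0.08 and -0.09. Dim signal with no measured background limits AT3G56060, AT1G73050 and AT5G51930 on all arrays, and AT5G51950 in 35S::CLE41. The causes of these changes were not tested.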
